A study of Mus musculus with 6 samples.

Results

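Ribosome assembly was examined through 50 genes in mast cells of mouse lymph nodes. The genes encode RNA polymerase I with its initiation factors and the proteins that fold, modify, cut and export the subunits of the ribosome. They were listed by name, with earlier results of these data known, so the list is not independent of the data. All 50 were found by gene symbol among the 17890 genes of the table. Libraries were made from mast cells of uninvolved lymph nodes (uLN, 3 libraries) and of lymph nodes with tumour metastasis (mLN, 3 libraries), with total RNA put into a messenger RNA library kit. The sources used here do not give the mouse strain, age, kind of tumour or way of isolating the mast cells. The labels number the replicates without tying them to animals, so p-values measure only how far these samples spread, which may be technical spread.

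Ribosomes are built in the nucleolus. RNA polymerase I copies the ribosomal DNA into a long precursor RNA, small nucleolar ribonucleoproteins (snoRNPs) modify it, and separate sets of assembly factors turn its parts into the small (40S) and the large (60S) subunit. Mast cells are long-lived tissue cells filled with granule proteins, and ribosome production is known to rise when cells grow or divide.

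The comparison of mLN with uLN asks how lymph node mast cells differ in metastatic nodes. Of the 50 members, 26 fell in mLN, 3 rose and 21 were not called. Calls rest on the quasi-likelihood test of edgeR, with p adjusted by Benjamini and Hochberg's method over the 12706 genes tested and a threshold of 0.05. In that fit 34.2% of all tested genes were called lower, 33.2% higher and 67.4% in either direction, so 52.0% of the members were lower and 6.0% higher. Of the members, 17 were called and at least 1.5-fold lower, where all tested genes gave 15.3%, and 5 at least 2-fold lower, where they gave 6.16%. Only Npm3 was called and at least 1.5-fold higher, where all tested genes gave 17.1%. The median log2 change was -0.30 over the members and -0.01 over all tested genes. The leading falls were in Ubtf, the factor that keeps ribosomal DNA open, and in Utp20 and Rrp12 of the small subunit path, while Npm1 and Npm3 rose.

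Libraries held 17643916 to 17799420 estimated counts, and members had between 14 and 4416 counts in a library, so all 50 passed the filter on low counts. The 10 mast cell markers listed (Kit, Cpa3, Il1rl1 and others) summed to 39540 to 43030 CPM (counts scaled to a common library total) in every library, but 5 of them were called lower and 3 higher in mLN. Kit, the stem cell factor receptor, was at 7538 to 7891 CPM in uLN and 3086 to 3173 in mLN, and Cpa3 at 14460 to 15190 and 10410 to 11840. The proteases Cma1 and Tpsb2 were at 4545 to 4904 and 3063 to 3342 CPM in uLN and at 8934 to 10380 and 6334 to 6795 in mLN. Whether these marker changes have a part in the changes of the members was not tested. The 6 keratinocyte and 6 fibroblast markers summed to 174 and 112 CPM in mLN replicate 1, against at most 36.8 and 25.8 CPM in the other libraries. All 4 tested keratinocyte markers and all 3 tested fibroblast markers were called higher in mLN, but not every mLN library was above uLN. In mLN replicate 2 the sums were 16.18 and 12.45 CPM, against 6.61 to 16.14 and 3.73 to 13.09 in uLN. In mLN replicate 3 they were 36.8 and 25.8 CPM. The 8 macrophage markers summed to 279 to 391 CPM in uLN and 223 to 248 in mLN, with 5 lower and 2 higher of 7 tested. Dendritic cell markers summed to 9.06 to 10.4 CPM in uLN and 15.0 to 17.1 in mLN, with 1 higher of 3 tested. Neutrophil markers summed to 3.67 to 3.96 CPM in uLN and 1.61 to 1.95 in mLN, with 1 lower of 1 tested. Endothelial markers summed to 888 to 932.5 CPM in uLN and 740.1 to 787.5 in mLN, nearly all from Pecam1 and Vwf, with Vwf called lower and Cdh5 and Kdr at 0 to 6 counts in a library. T cell markers were at most 2.98 CPM in all and B cell markers 0.723. Melanocyte markers summed to 15.7 CPM in mLN replicate 1 and at most 8.44 in the other libraries, with 1 higher of 2 tested. The part of these other transcripts in the changes of the members was not tested. Without mLN replicate 1, 26 members were called lower and 3 higher. The share of all tested genes called in that fit is not given here, so these counts are not set against it. In bulk RNA, fewer cells with a transcript and less of it per cell cannot be told apart.

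Library mLN replicate 3 also stood apart. The median chi-square per gene was 2.48 and 2.58 between it and the other mLN libraries, against 0.74 between those libraries. Without it, 26 members were called lower, 5 higher, and the median log2 change was -0.20. The share of all tested genes called without mLN replicate 3 is likewise not given here.

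Promoter windows are shown for the members whose changes lead the results, so that the letters can be set beside the values. They run from 250 bases before to 50 after a start site in RefSeq (build GRCm38.p6), and 45 of the 50 members had at least 1 window there (54 windows). Npm1, Fbl, Bop1, Rrp12 and Rrs1 had none. Capitals mark 4 short motifs searched on both strands, namely CACGTG (the E-box bound by MYC and related factors), CTCGCGAG, CGGAAG (the core of ETS factor sites, CTTCCG on the other strand) and AAGATGGCG (a core of YY1 sites). In no member window did motifs of different kinds overlap. Utp20, Gar1 and Tsr1 fell at least 2-fold and hold motifs. Ubtf, which fell most, and Npm3 and Rrp1b, which rose, hold none in the windows shown.
Utp20, chr10:88826765-88827064, minus strand: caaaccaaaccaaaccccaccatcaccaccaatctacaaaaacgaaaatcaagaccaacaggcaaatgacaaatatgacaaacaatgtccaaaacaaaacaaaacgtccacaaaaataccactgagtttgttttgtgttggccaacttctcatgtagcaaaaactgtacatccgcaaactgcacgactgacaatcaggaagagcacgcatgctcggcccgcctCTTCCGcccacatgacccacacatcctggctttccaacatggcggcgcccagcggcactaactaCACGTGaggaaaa
Gar1, chr3:129831347-129831646, minus strand: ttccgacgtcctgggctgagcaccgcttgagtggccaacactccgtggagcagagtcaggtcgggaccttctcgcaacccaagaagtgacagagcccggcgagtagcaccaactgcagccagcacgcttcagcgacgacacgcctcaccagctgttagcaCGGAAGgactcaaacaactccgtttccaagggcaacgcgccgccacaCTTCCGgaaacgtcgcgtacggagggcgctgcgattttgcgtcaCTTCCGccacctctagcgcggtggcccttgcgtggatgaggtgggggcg
Tsr1, chr11:74897830-74898129, plus strand: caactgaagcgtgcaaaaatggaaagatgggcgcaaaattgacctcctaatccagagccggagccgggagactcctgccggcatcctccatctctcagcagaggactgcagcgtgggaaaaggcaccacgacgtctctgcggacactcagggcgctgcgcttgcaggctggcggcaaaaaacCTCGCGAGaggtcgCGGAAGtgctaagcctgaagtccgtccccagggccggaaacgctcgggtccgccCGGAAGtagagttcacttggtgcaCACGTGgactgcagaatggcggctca
Ubtf, chr11:102319543-102319842, minus strand: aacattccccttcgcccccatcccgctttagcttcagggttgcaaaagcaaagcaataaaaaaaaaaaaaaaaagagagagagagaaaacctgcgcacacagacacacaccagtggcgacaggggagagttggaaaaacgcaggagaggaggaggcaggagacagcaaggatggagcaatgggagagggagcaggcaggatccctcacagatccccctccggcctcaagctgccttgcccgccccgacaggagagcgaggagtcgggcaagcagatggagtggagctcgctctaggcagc
Npm3, chr19:45749516-45749815, minus strand: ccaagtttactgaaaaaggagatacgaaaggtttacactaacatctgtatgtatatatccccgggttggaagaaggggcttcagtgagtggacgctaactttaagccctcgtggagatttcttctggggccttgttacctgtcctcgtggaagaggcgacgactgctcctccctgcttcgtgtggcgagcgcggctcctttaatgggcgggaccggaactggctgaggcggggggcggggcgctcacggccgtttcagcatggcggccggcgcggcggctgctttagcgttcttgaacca
Rrp1b, chr17:32035912-32036211, plus strand: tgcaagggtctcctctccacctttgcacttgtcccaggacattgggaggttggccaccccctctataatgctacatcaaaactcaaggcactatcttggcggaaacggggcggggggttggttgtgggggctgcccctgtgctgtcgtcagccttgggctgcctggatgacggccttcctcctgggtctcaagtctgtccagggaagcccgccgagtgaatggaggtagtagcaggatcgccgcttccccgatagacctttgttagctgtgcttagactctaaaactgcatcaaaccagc

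In these windows the Utp20 promoter has CACGTG beginning at base +38 and the reverse complement of CGGAAG at -27, counted from the start site as +1. Gar1 has the ETS core 3 times, at -90, -43 and +2. Tsr1 has CTCGCGAG at -68, the ETS core at -54 and +1 and CACGTG at +25. Over all members, CGGAAG was in 25 of 54 windows (46.3%), where 24.5% of the 17614 windows of all genes in the table and 29.7% of the 13044 windows of tested genes hold it. CACGTG was in 9 of the 54 windows (16.7%), against 8.7% and 9.6%. The median GC content was 59.2% in the member windows and 58.7% in those of all genes. By call, the ETS core was in 15 of 27 windows of members that fell, 10 of 24 of members not called and 0 of 3 of members that rose. CACGTG was in 7 of 27, 2 of 24 and 0 of 3. Some genes have several windows, so the genes with a window were also counted. By gene, the ETS core was in 15 of 22, 9 of 21 and 0 of 2, and CACGTG in 7 of 22, 2 of 21 and 0 of 2. Counted in the same way, 34.7% of tested genes with a window hold the ETS core and 11.5% hold CACGTG. For all tested genes called lower these shares by gene were 41.9% and 12.5%. Among the 4413 windows of all genes called lower, 36.6% hold the ETS core and 10.6% hold CACGTG. CTCGCGAG was in the Tsr1 window alone among the members (1.5% of all windows), and AAGATGGCG in none of them (2.2% of all windows). The other list of 126 ribosome assembly genes had the ETS core in 76 of 116 windows (65.5%) and CACGTG in 24 (20.7%). All 6 windows of Ubtf were without any of the motifs. A match is a run of letters and was not tested as a binding site.

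RNA polymerase I and its initiation factors had 3 of 8 called lower and 0 higher, and a median log2 change of -0.11. Those called lower were Ubtf, Polr1b and Rrn3, and Ubtf fell by far the most. The share called lower was 37.5%, near the 34.2% of all tested genes, of which 33.2% were called higher. Ubtf (UBF, an HMG-box protein that binds along the ribosomal DNA) is encoded on chromosome 11 from 102304560 to 102319742 (build GRCm38). It measured 221, 217 and 221 CPM in uLN replicates 1, 2 and 3 and 83.9, 81.2 and 57.4 CPM in mLN replicates 1, 2 and 3. Every mLN library was far below every uLN library, and replicate 3 was the lowest. The mean went from 219 ± 2.49 to 74.2 ± 14.6 CPM (SD, n = 3), a fall of 2.96-fold and a log2 change of -1.56 ± 0.11 (SE) (edgeR adjusted p = 8.45e-07). It was 2.65-fold without mLN replicate 3.

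Polr1b, the second-largest subunit of the enzyme, was at 17.8, 16.6 and 18.2 CPM in uLN and 11.3, 15.1 and 11.9 CPM in mLN, where replicate 2 came nearest to uLN. It fell 1.38-fold (log2 change of -0.46 ± 0.11 (SE), edgeR adjusted p = 0.00356), and the groups did not overlap. Polr1a, the largest and catalytic subunit, was at 24.9, 23.3 and 26.5 CPM in uLN and 27.2, 27.4 and 22.05 in mLN. The groups overlapped, mLN replicate 3 was below every other library, and the log2 change of 0.03 ± 0.09 (SE) was not called. Rrn3, which links the polymerase to its promoter, was at 43.6, 44.1 and 43.3 CPM in uLN and 40.9, 39.03 and 38.7 in mLN. That difference of 1.10-fold was called narrowly (edgeR adjusted p = 0.0364) and the call was lost in 10 of 15 alternatives, including 4 in which a single library was left out. Those 4 libraries were uLN replicates 1, 2 and 3 and mLN replicate 2, where edgeR's adjusted p was between 0.0693 and 0.11.

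The other subunits were not called. Polr1c and Polr1d, which RNA polymerase III also uses, had log2 changes of 0.07 ± 0.10 (SE) and -0.09 ± 0.07 (SE). Polr1e, an associated subunit, had -0.05 ± 0.12 (SE), and Taf1b, part of the promoter selectivity factor SL1, had -0.20 ± 0.09 (SE). Taf1b was called lower without mLN replicate 2 (edgeR adjusted p = 0.0343). The steepest fall of all members was thus in a set where 5 of 8 were not called.

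**Figure D1:**
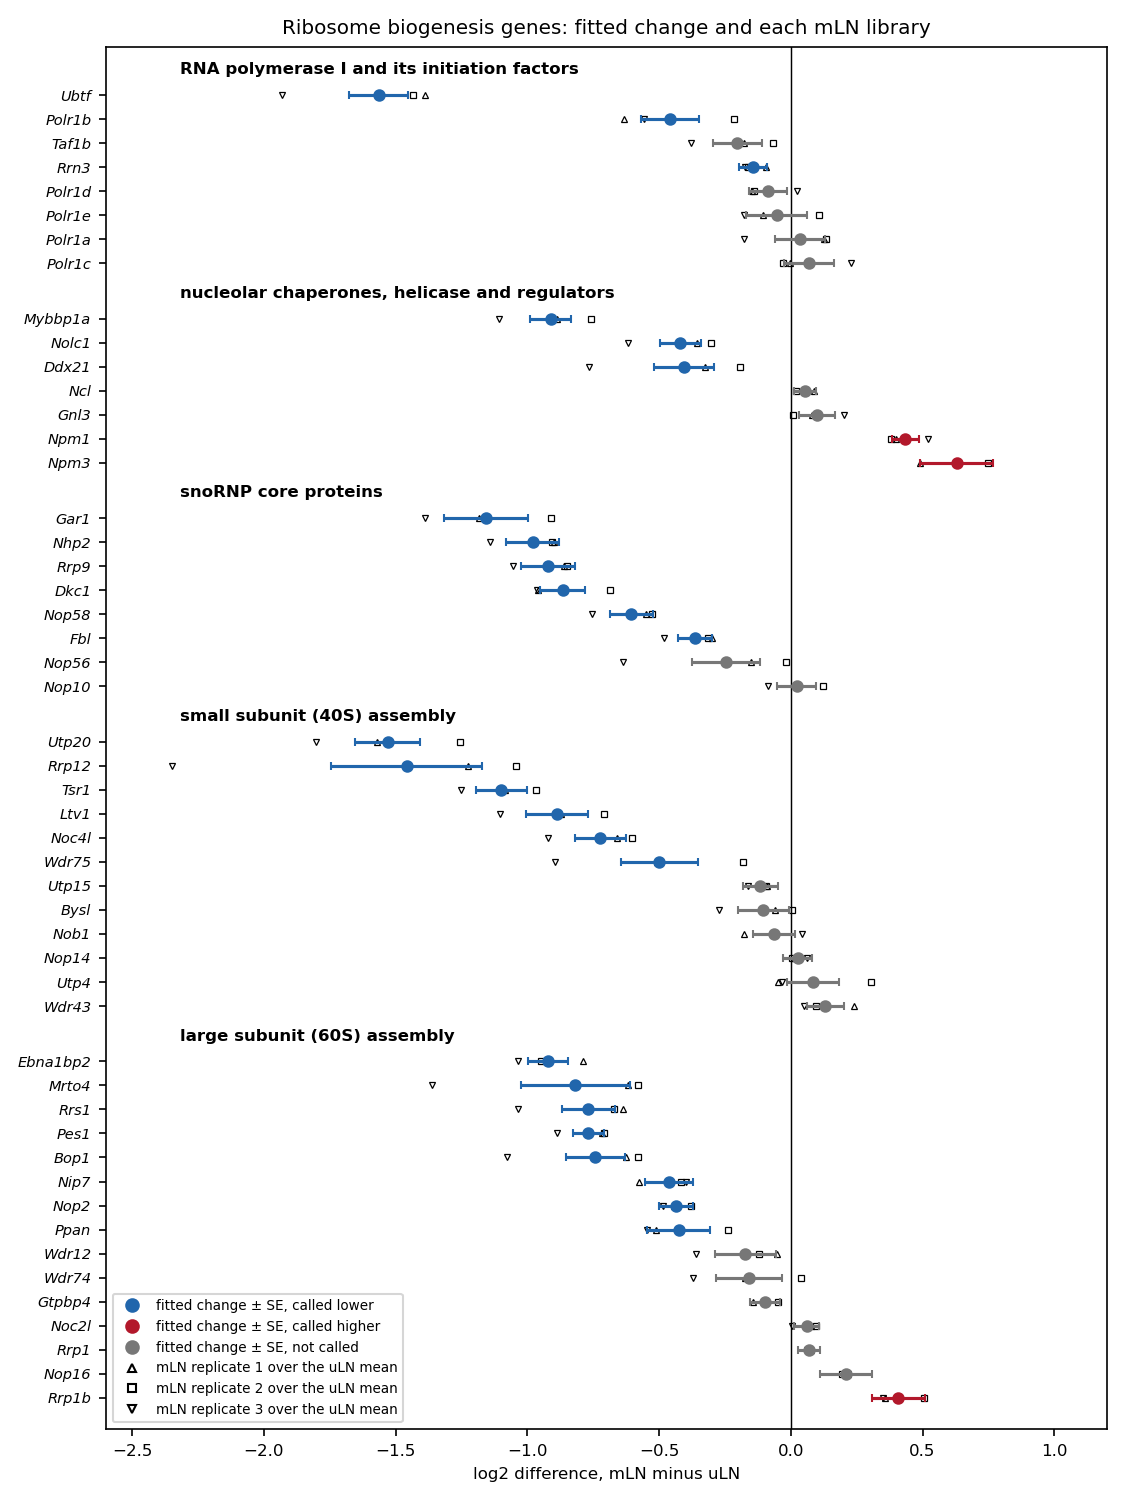
Fitted log2 change of each member (circle, ± SE) by role, with each mLN library's log2 ratio to the uLN mean (open symbols). Ubtf, Utp20 and Rrp12 lie at or below -1.46, and the only members called higher are Npm1, Npm3 and Rrp1b.

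The nucleolar chaperones, helicase and regulators went both ways, with 3 of 7 lower and 2 higher and a median log2 change of 0.05. These shares were 42.9% and 28.6%, where all tested genes gave 34.2% lower and 33.2% higher. Npm1 (nucleophosmin, an abundant histone and ribosome chaperone) was at 158, 159 and 165 CPM in uLN and 212, 209 and 230.4 CPM in mLN. All mLN libraries were above all uLN libraries, and replicate 3 was here the highest. Npm1 has processed pseudogenes in the mouse genome, and how reads shared with them were split is unknown here. Npm1 lies on chromosome 11 from 33152287 to 33163206 and rose 1.35-fold (log2 change of 0.43 ± 0.05 (SE), edgeR adjusted p = 2.59e-05). Npm3, a smaller protein of the same family, was at 5.04, 6.66 and 6.61 CPM in uLN and 8.60, 10.3 and 9.47 in mLN. It rose 1.55-fold (log2 change of 0.63 ± 0.14 (SE), edgeR adjusted p = 0.00221) without overlap of the groups, from 88 to 118 counts in uLN to 157 to 185 in mLN.

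Ncl (nucleolin, an abundant RNA-binding protein of the nucleolus) was at 229.8, 225 and 227 CPM in uLN and 242, 230.2 and 236 CPM in mLN. The groups lay side by side without overlap, and the log2 change of 0.05 ± 0.04 (SE) was not called. Gnl3 (nucleostemin, a nucleolar GTP-binding protein) was not called either, with a log2 change of 0.10 ± 0.07 (SE). Mybbp1a, a nucleolar protein that binds MYB and the polymerase I machinery, was at 83.7, 81.4 and 81.5 CPM in uLN and 44.4, 48.5 and 38.1 in mLN. All uLN libraries were above all mLN libraries, and the fall was 1.88-fold (log2 change of -0.91 ± 0.08 (SE), edgeR adjusted p = 2.72e-06). Nolc1 (Nopp140, a snoRNP chaperone) and the RNA helicase Ddx21 fell less, 1.34-fold and 1.33-fold. Ddx21 rested partly on mLN replicate 3, at 51.3 CPM against 69.5 and 76.3 in the other mLN libraries and 85.5 to 89.6 in uLN. Without that library its fall was 1.19-fold (edgeR adjusted p = 0.000359).

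Core proteins of the snoRNPs had the lowest median of the 5 roles, a log2 change of -0.74. Of these snoRNP proteins 6 of 8 (75.0%) were lower and 0 higher, where all tested genes gave 34.2% and 33.2%. These particles carry guide RNAs that direct the chemical marking of ribosomal RNA. The H/ACA kind, which turns uridine into pseudouridine, has 4 core proteins, and 3 of them fell. Gar1 was at 7.51, 6.89 and 7.07 CPM in uLN and 3.12, 3.78 and 2.70 in mLN, a fall of 2.23-fold (log2 change of -1.16 ± 0.16 (SE)). Its counts were 122 to 131 in uLN and 47 to 68 in mLN, with no overlap. Nhp2 was at 15.3, 16.9 and 15.1 CPM in uLN and 8.43, 8.40 and 7.12 in mLN, a fall of 1.97-fold. Dkc1 (dyskerin, the pseudouridine synthase itself) was at 24.2, 25.1 and 24.8 CPM in uLN and 12.7, 15.3 and 12.6 in mLN, with no overlap. It lies on chromosome X from 75095854 to 75109777 and fell 1.82-fold (log2 change of -0.87 ± 0.09 (SE), edgeR adjusted p = 9.17e-06). The remaining core protein, Nop10, did not follow. It was at 24.5, 26.8 and 26.3 CPM in uLN and 26.3, 28.2 and 24.4 in mLN, the groups overlapped, and the log2 change was 0.02 ± 0.07 (SE).

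In the C/D kind, which adds methyl groups to the ribose, Fbl (fibrillarin, the methyltransferase) was at 39.2, 39.1 and 39.5 CPM in uLN and 31.9, 31.6 and 28.1 CPM in mLN. It fell 1.29-fold (log2 change of -0.36 ± 0.07 (SE), edgeR adjusted p = 0.000586), a small difference that still left the groups apart. Nop58 was at 24.4, 22.5 and 23.6 CPM in uLN and 16.05, 16.3 and 13.9 in mLN and fell 1.52-fold. Its partner Nop56 was at 31.9, 30.02 and 29.9 CPM in uLN and 27.6, 30.2 and 19.6 in mLN, where only replicate 3 was far below uLN. Nop56 was not called (log2 change of -0.25 ± 0.13 (SE)), and it was called lower without mLN replicate 2 (log2 change of -0.38, edgeR adjusted p = 0.027). Rrp9, a protein particular to the U3 snoRNP that starts processing of the small subunit RNA, was at 15.1, 13.9 and 16.5 CPM in uLN and 8.33, 8.40 and 7.29 in mLN. It fell 1.90-fold with no overlap (log2 change of -0.92 ± 0.10 (SE)).

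**Figure D2:**
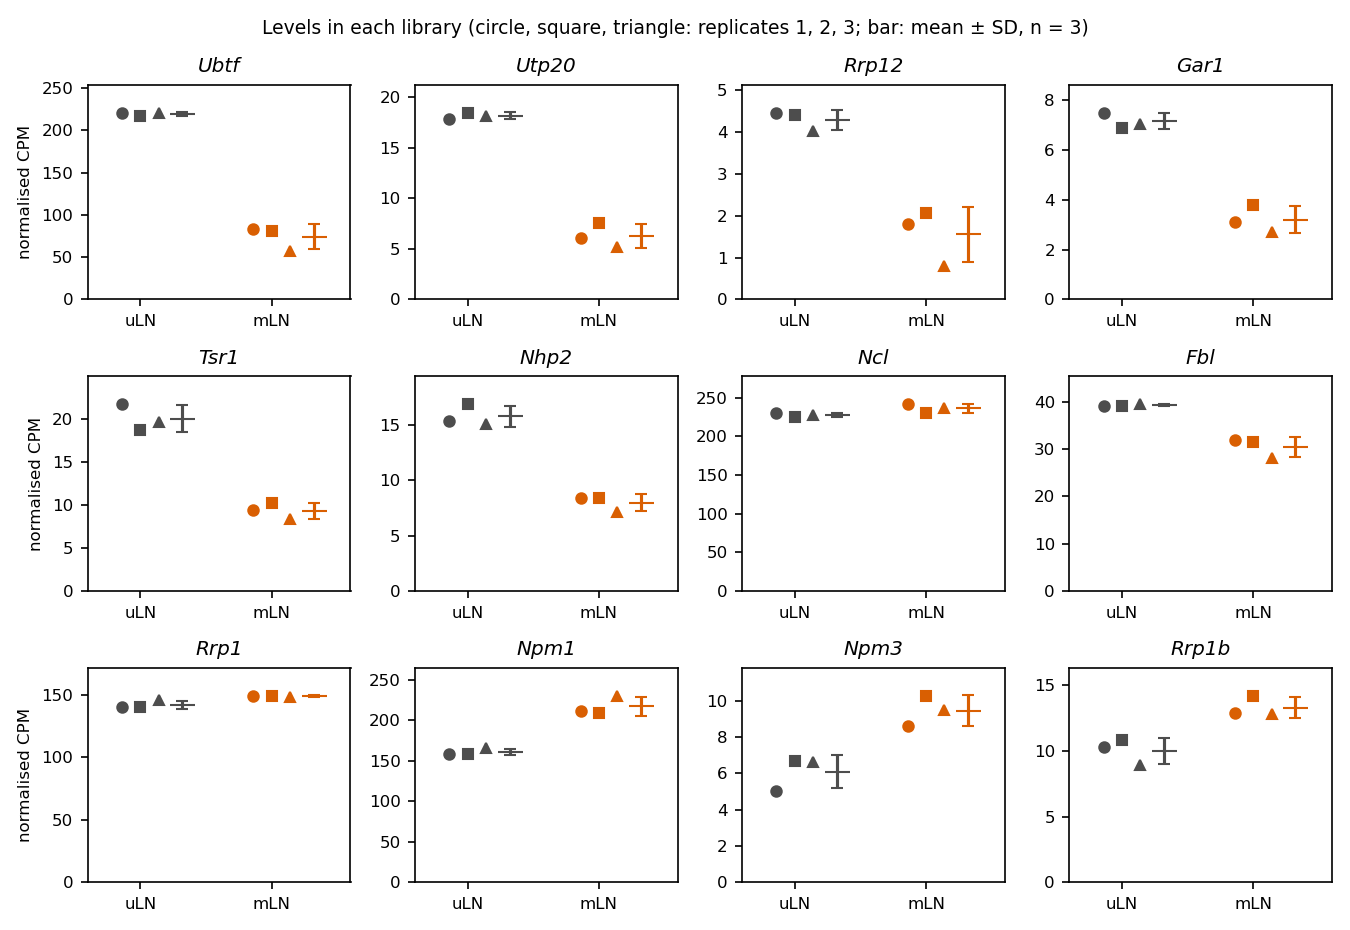
Normalised CPM of 12 members in each library, with mean ± SD of 3 libraries per group. Ubtf, Utp20, Rrp12, Gar1, Tsr1 and Nhp2 are far below uLN in every mLN library, Ncl and Rrp1 differ little, and Npm1, Npm3 and Rrp1b are higher.

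Small subunit assembly split into members that fell and members that did not, with 6 of 12 lower and 0 higher. In the same fit, all tested genes gave 34.2% lower and 33.2% higher. Utp20, a very large scaffold protein of the early particle (the processome), was at 17.8, 18.5 and 18.2 CPM in uLN and 6.08, 7.56 and 5.17 CPM in mLN. The uLN libraries lay close together and every mLN library was far below them. Utp20 lies on chromosome 10 from 88746607 to 88826804 and fell 2.89-fold (log2 change of -1.53 ± 0.12 (SE), edgeR adjusted p = 1.91e-06). Rrp12, a helical-repeat protein that helps export the particle, was at 4.47, 4.40 and 4.02 CPM in uLN and 1.81, 2.06 and 0.804 in mLN. It fell 2.75-fold on 70 to 78 counts in uLN and 33, 37 and 14 counts in mLN replicates 1, 2 and 3. Without mLN replicate 3 its fall was 2.21-fold.

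Tsr1, Ltv1, Bysl and Nob1 act on the late particle. Tsr1, a protein related to GTPases that keeps the particle inactive, was at 21.7, 18.7 and 19.6 CPM in uLN and 9.42, 10.2 and 8.38 in mLN. It fell 2.14-fold with no overlap (log2 change of -1.10 ± 0.10 (SE), edgeR adjusted p = 3.97e-06). Ltv1, which leaves the particle late in its maturation, was at 15.8, 13.9 and 16.7 CPM in uLN and 8.43, 9.45 and 7.18 in mLN and fell 1.85-fold. Bysl (bystin) and Nob1, the nuclease that makes the final cut of the 18S RNA, were not called, with log2 changes of -0.10 ± 0.10 (SE) and -0.06 ± 0.08 (SE). Both had overlapping groups.

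Noc4l and Nop14 work as a pair in the early particle, yet only Noc4l fell. It was at 18.6, 17.5 and 19.5 CPM in uLN and 11.7, 12.2 and 9.76 in mLN, a fall of 1.65-fold with no overlap. Nop14 was at 63.6, 58.1 and 63.9 CPM in uLN and 62.4, 61.99 and 64.6 in mLN, a log2 change of 0.03 ± 0.05 (SE), and its groups overlapped. Whether the changes of the pair differ was not tested. Utp4, Utp15, Wdr43 and Wdr75 belong to the subcomplex that binds the precursor RNA first, as it is being copied. Of these Wdr75 was called lower, 1.41-fold (edgeR adjusted p = 0.0115), from 15.7, 16.6 and 15.5 CPM in uLN to 11.2, 14.1 and 8.55 in mLN. Its mLN libraries were spread from 8.55 to 14.1 CPM. Without mLN replicate 3 the fall was 1.26-fold, and without uLN replicate 2 the call was lost (edgeR adjusted p = 0.0516). Utp4, Utp15 and Wdr43 were not called, with log2 changes of 0.08 ± 0.10 (SE), -0.12 ± 0.07 (SE) and 0.13 ± 0.07 (SE). Without mLN replicate 3, Wdr43 was called higher (log2 change of 0.17, edgeR adjusted p = 0.0306).

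Large subunit assembly gave 8 of 15 members lower, 1 higher and a median log2 change of -0.43. In percent, 53.3% were lower and 6.7% higher, where all tested genes gave 34.2% and 33.2%. Pes1, Bop1 and Wdr12 form a trimer needed to process the 28S and 5.8S RNAs. Pes1 was at 64.7, 62.6 and 63.5 CPM in uLN and 38.7, 38.9 and 34.4 in mLN, and fell 1.70-fold (log2 change of -0.77 ± 0.06 (SE), edgeR adjusted p = 1.61e-06). Bop1 was at 34.8, 35.7 and 37.5 CPM in uLN and 23.3, 24.1 and 17.1 in mLN, and fell 1.67-fold with no overlap. The third protein, Wdr12, was at 9.57, 8.86 and 9.71 CPM in uLN and 9.04, 8.62 and 7.29 in mLN. Its groups overlapped and it was not called (log2 change of -0.17 ± 0.12 (SE)).

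Ebna1bp2, an early 60S factor, was at 29.2, 29.1 and 29.3 CPM in uLN and 16.9, 15.1 and 14.2 in mLN. Its uLN libraries were nearly equal and all above mLN, and it fell 1.89-fold (log2 change of -0.92 ± 0.08 (SE), edgeR adjusted p = 2.36e-06). Rrs1, which helps place the 5S RNA, was at 22.7, 22.2 and 22.6 CPM in uLN and 14.5, 14.1 and 10.97 in mLN, and fell 1.71-fold. Mrto4, which holds the place of the stalk protein until late in assembly, was at 5.68, 7.11 and 6.49 CPM in uLN and 4.16, 4.28 and 2.47 in mLN. It fell 1.76-fold on 99 to 126 counts in uLN and 43 to 77 in mLN, and 1.52-fold without mLN replicate 3. Nop2 (an RNA methyltransferase), Nip7 and Ppan fell by less, 1.35-fold, 1.38-fold and 1.34-fold, each without overlap of the groups.

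Rrp1b was the large subunit member that rose. It was at 10.3, 10.8 and 8.90 CPM in uLN and 12.8, 14.2 and 12.7 in mLN, a rise of 1.33-fold (log2 change of 0.41 ± 0.10 (SE), edgeR adjusted p = 0.00458). Its relative Rrp1 was at 140.1, 139.8 and 145 CPM in uLN and 149, 149 and 148 in mLN. That difference was small, its groups did not overlap, and it was not called (log2 change of 0.07 ± 0.04 (SE)), though it was with library size as the only scaling (edgeR adjusted p = 0.0494) and without mLN replicate 3 (0.0423 in the same test). Nop16, Noc2l, Wdr74 and the GTPase Gtpbp4 were not called, with log2 changes of 0.21 ± 0.10 (SE), 0.06 ± 0.05 (SE), -0.16 ± 0.12 (SE) and -0.10 ± 0.06 (SE).

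**Figure D3:**
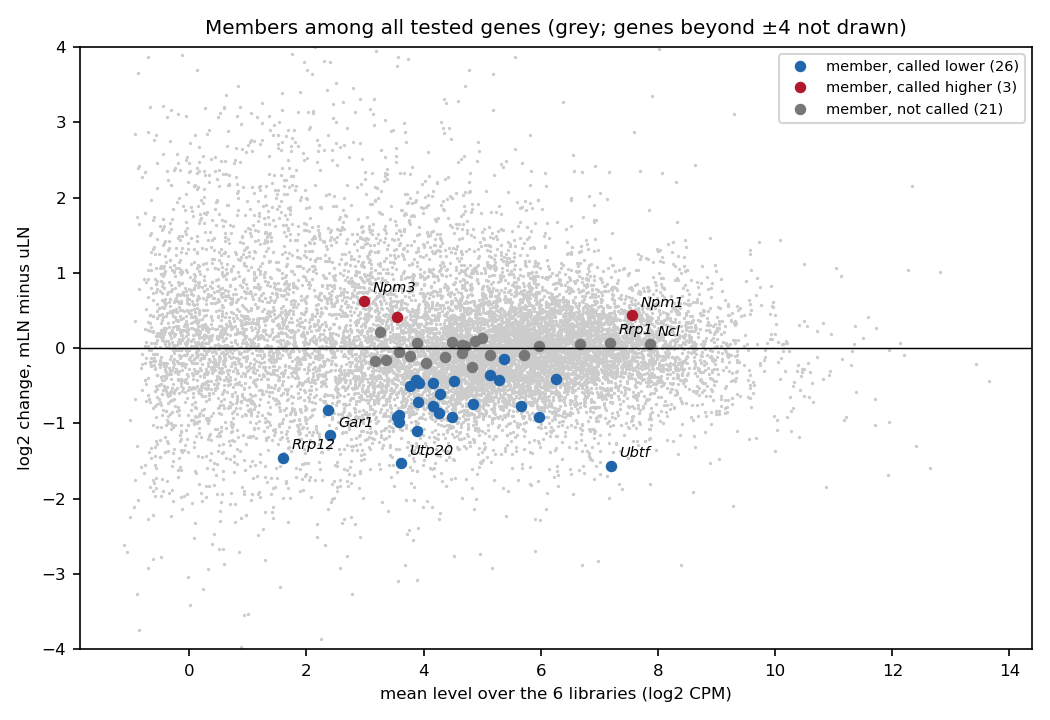
Mean level (log2 CPM, x axis) and log2 change (y axis) of all tested genes (grey) and of the members. The 26 members called lower range in level from Rrp12 on the left to Ubtf on the right.

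The groups did not overlap for 35 of the 50 members, where all tested genes gave 72.9%. Within mLN the members were not even. Of the 26 members called lower, 24 were lowest in mLN replicate 3, where 63.5% of all tested genes called lower were. Over all 50 members it was 37, where all tested genes gave 42.1%. The exceptions among the members that fell were Polr1b and Nip7, which were lowest in mLN replicate 1. The median log2 ratio to the uLN mean over the members called lower was -0.648, -0.637 and -0.998 in mLN replicates 1, 2 and 3. Over all tested genes it was -0.015, -0.01 and -0.015 in these libraries. Summed over all 50 members the level was 2007 to 2045 CPM in uLN and 1629 to 1753 in mLN, with mLN replicate 3 the lowest.

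**Figure D4:**
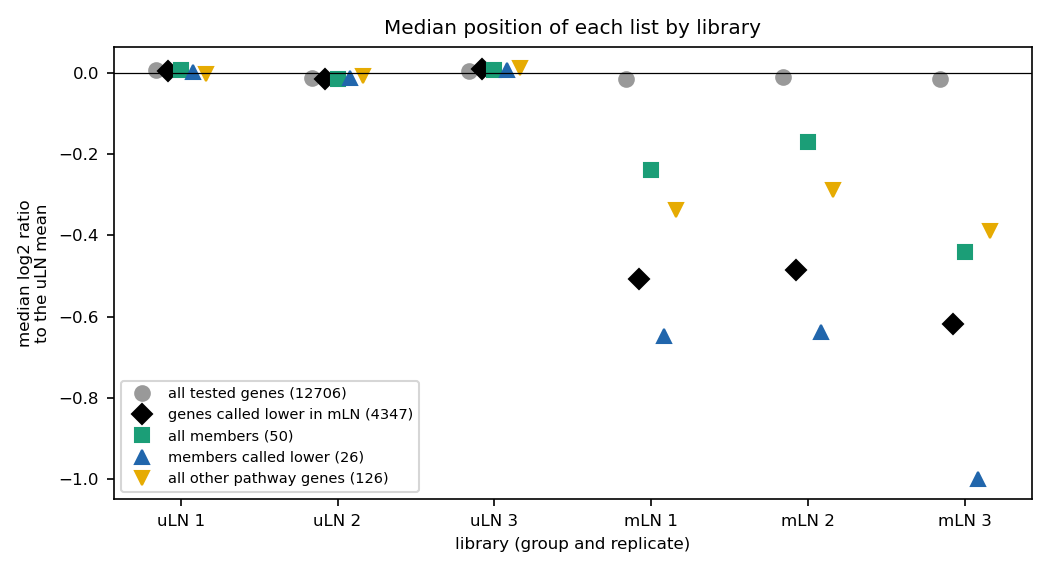
Median log2 ratio to the uLN mean for each list (y axis) in each library (x axis). The members called lower sit at -0.648 and -0.637 in mLN replicates 1 and 2 and at -0.998 in replicate 3, while all tested genes stay near 0.

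Levels between genes were compared per length, as mean CPM per kilobase of a coding transcript in GENCODE M21. Transcripts tagged basic and CCDS (consensus coding sequence) were preferred, and among those the longest coding part. On that scale Npm1 was the highest member in both groups, at 98.3 in uLN and 133 in mLN. Ubtf went from rank 2 (79.5) to rank 6 (26.9), and Rrp1 from rank 3 (71.5) to rank 2 (75.0). Polr1d, at 45.3 and 42.6, was far above the catalytic subunit Polr1a, at 2.71 and 2.77. Rrp12 was the lowest in both groups, at 0.99 and 0.36. The median member was at 9.64 in uLN and 7.47 in mLN. Transcripts with a long untranslated end weigh on this scale, as for Ncl, whose annotated transcript has 8202 bases of which 2121 are coding.

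Several members carry further genes within them. By GENCODE M21, 8 members hold 23 snoRNA genes, all of them in introns. These hosts are Ncl, Gnl3, Nop56, Nop58, Dkc1, Wdr43, Tsr1 and Ppan, of which Nop58, Dkc1, Tsr1 and Ppan fell and the other 4 were not called. Of all tested genes, 34.2% were called lower. The snoRNAs themselves were not analysed here. For 17 members an exon overlaps an exon of a gene on the opposite strand, and the sources used here do not say whether the counting used strand. Mybbp1a fell while its neighbour Spns2 rose (log2 change of 3.16), and the same opposite signs were seen for Rrp9 with Parp3 (0.57) and Dkc1 with Mpp1 (0.80). Nhp2 and its neighbour Rmnd5b both fell (-0.58 for Rmnd5b).

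Beyond the members, a further list of 126 genes of ribosome assembly was read from the same fit. In it 79 genes fell, 17 rose and 30 lacked a call, and the median log2 change was -0.32. Here too 34.2% of all tested genes were called lower and 33.2% higher. Among 48 other small subunit genes 34 fell and 2 rose, led by Pno1 (a partner of Nob1, log2 change of -1.20 ± 0.19 (SE)) and Utp11 (0.45 ± 0.07 (SE)). Among 43 other large subunit genes 25 fell and 8 rose, with Ftsj3, an RNA methyltransferase, at -1.37 ± 0.13 (SE) and the helicase Ddx24 at 0.49 ± 0.04 (SE). Of 17 genes of the exosome and of trimming of ribosomal RNA 12 fell and 2 rose, with the exosome subunits Exosc2 at -0.91 ± 0.14 (SE) and Exosc7 at 0.46 ± 0.07 (SE). Of 8 snoRNP assembly genes 3 fell and 0 rose. Pih1d1, part of the R2TP chaperone complex, had the steepest fall of them, -1.76 ± 0.12 (SE). Its mean was 30.8 ± 1.74 CPM over the uLN libraries and 9.06 ± 1.72 over the mLN libraries (SD, n = 3).

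Of all tested genes 34.2% were called lower and 33.2% higher, which is 67.4% in either direction. The 10 other genes of RNA polymerase I and ribosomal DNA transcription were all called, 5 lower and 5 higher. The list includes subunits that RNA polymerase I shares with RNA polymerases II and III, so the split is not one of polymerase I alone. Of these shared subunits Polr2f, Polr2k and Polr2l fell and Polr2e and Polr2h rose. The SL1 subunit Taf1c fell (log2 change of -0.94 ± 0.09 (SE)) and the SL1 subunit Taf1d rose (0.48 ± 0.08 (SE)).

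**Figure D5:**
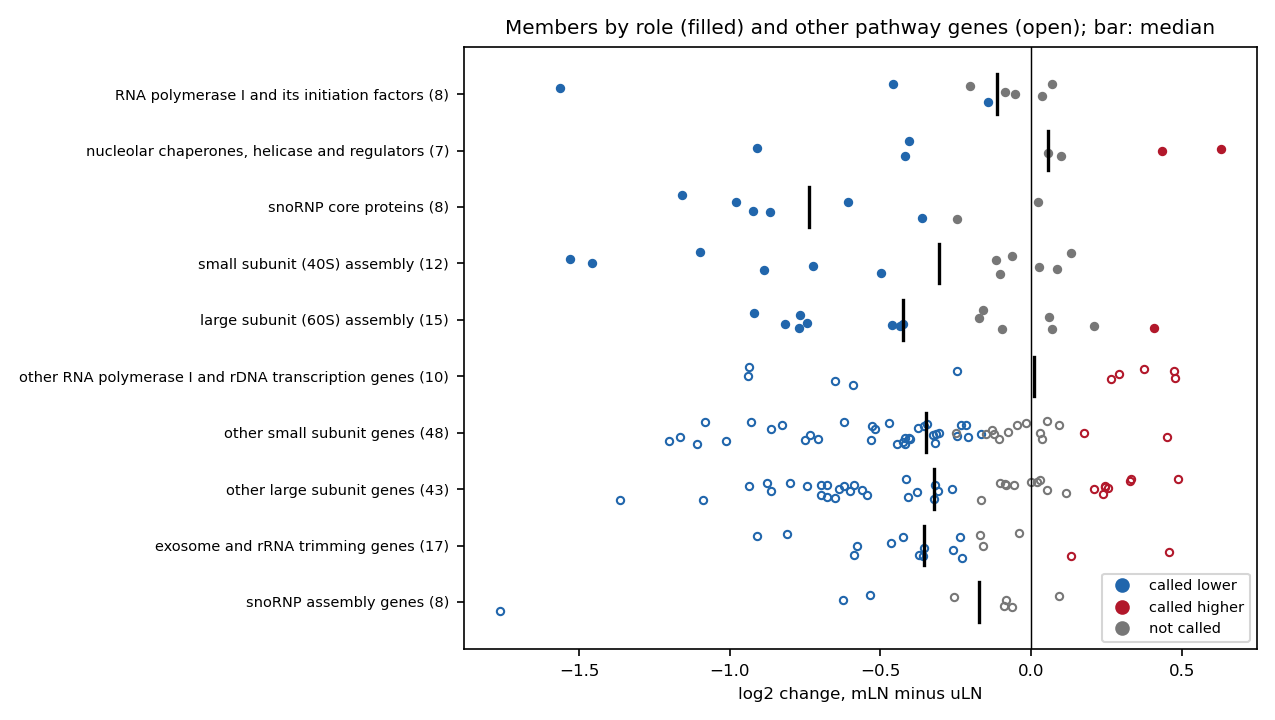
Log2 change (x axis) of each member by role (filled) and of the other pathway genes by list (open), with the median of each list as a bar. The snoRNP core proteins have the lowest median, -0.74. Of the 10 other genes of polymerase I and ribosomal DNA transcription, shared polymerase subunits included, 5 are on either side of 0.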

How the data were processed

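Values of the 6 libraries are the authors' estimated counts, deposited by gene in 1 table with no stated scaling. Between 32.2% and 32.8% of a library's values were not whole. The tools cutadapt, FastQC and TopHat and the build GRCm38 are listed per the submitters' processing notes. For the counting tool and its strand setting, the sources used here give nothing. Of 17891 rows, 1 named no gene and was left out. Counts were rounded, filtered with edgeR's default filter, scaled by TMM and tested in edgeR 4.0.16 (R 4.3.3) with group as the only term. CPM values use the TMM-scaled library sizes. The standard error is the log2 change over the square root of F. Alternatives were other scaling factors, no filter, unrounded counts, DESeq2 1.42.0, limma-voom (limma 3.58.1), a set coefficient of variation, a replicate block and leaving out each library.

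The edgeR test was tested on simulated data. Each library was counted as a sample, as labelled. The chi-square between libraries of a group had a mean per gene of at least 2.06 and a median of 0.65 to 0.70 in uLN, which shows that the counts are not identical and not that the samples are independent.

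The members, lists and motifs were chosen with earlier results of these data known. All members were named. Values per library were given for called members with at least a 1.5-fold change and for Polr1a, Polr1b, Ubtf, Rrn3, Ncl, Npm1, Fbl and Dkc1, and for some others chosen after their values were seen. For each other list, the text names its steepest called rise and its steepest called fall. Of 129 genes in these lists, 126 were found, 1 by synonym. Polr1f, Polr1g and Polr1h were not analysed here.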

Additional observations from a re-analysis of the deposited data

How the results depend on the processing

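Of the 26 members called lower, 24 kept their call and direction in every alternative other than the set coefficient of variation, and so did all 3 called higher. The exceptions were Rrn3 and Wdr75. With the coefficient of variation between replicates set to 0.2 (it was estimated at 3.1% in uLN and 9.1% in mLN), 17 members were called lower and 1 higher, 36 and 0 of the other pathway genes, and 1913 and 2145 of all genes. Leaving out 1 library at a time gave 3 to 5 members called higher, 24 to 27 lower and a median log2 change from -0.38 to -0.20. The shares of all tested genes called in these fits are not given here. Other scaling factors gave medians from -0.29 to -0.28. Changes of sign were limited to members that were not called. With 1 library left out at a time, the log2 change ranged from -0.0196 to 0.134 for Polr1a, from -0.0124 to 0.118 for Polr1c, from -0.144 to 0.0187 for Polr1e, from -0.0424 to 0.147 for Utp4, from -0.0328 to 0.0772 for Nop10 and from -0.0159 to 0.0428 for Nop14. With no filter Nop10 was at -0.0043 and Nop14 at -0.001.

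Pairing by replicate number was not seen. Deviations of same-numbered libraries from their group means correlated at 0.032, -0.144 and 0, and not every library correlated best with its own number. With 3 libraries per group this cannot exclude a pairing, since a weak shared effect would not show. With a replicate block, 25 members were called lower, 3 higher, and the median was -0.31 (the share of all tested genes called is not given here). The call lost was Rrn3 (edgeR adjusted p = 0.0652). Low depth limits Rrp12, Mrto4 and Gar1, which had at most 131 counts in a library.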

Other observations

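Some further genes of the pathway are given here by complex, as log2 changes of mLN against uLN, and were chosen after their values were seen. Of the SL1 promoter factor, Taf1a rose (0.47 ± 0.10 (SE)), Taf1c fell and the member Taf1b was not called. In the subcomplex that holds Utp4, Utp15, Wdr43 and Wdr75, the further proteins Heatr1 and Nol11 fell (-1.01 ± 0.15 (SE) and -0.73 ± 0.08 (SE)). Heatr1 was at 34.2, 32.3 and 33.03 CPM in uLN and 17.1, 20.3 and 11.8 in mLN. Imp3 and Imp4, which join U3 to the precursor, fell together with their partner Mphosph10 (-0.75 ± 0.07 (SE), -1.08 ± 0.11 (SE) and -0.53 ± 0.10 (SE)). The exosome subunits Exosc1, Exosc2, Exosc3, Exosc4, Exosc5, Exosc8, Exosc9 and Exosc10 fell, whereas Exosc7 rose and the nuclease Dis3 was not called (-0.16 ± 0.08 (SE)). Among DEAD-box helicases of the large subunit list, Ddx18, Ddx27, Ddx31, Ddx51, Ddx54, Ddx55 and Ddx56 fell and Ddx24 rose.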
